A study of Mus musculus with 28 samples.

Results

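Genes that write and erase histone methylation were followed in nascent RNA of mouse embryonic stem cells (mESCs). They were taken as every row whose symbol begins with Kdm, Kmt or Setd, except 1, which gave 35 of the 24984 listed genes. Of these, 17 are lysine demethylases (Kdm) and 18 are named as methyltransferases (Kmt and Setd). Bru-seq was used, a method that feeds cells 5-bromouridine (BrU) for some minutes so that RNA made in that time can be captured and sequenced. Wild-type (WT) cells were compared with EloA null cells, which lack Elongin A, a factor that stimulates elongation by RNA polymerase II in vitro. The paper found only a limited effect of its loss on the elongation rate in mESCs. In steady state, untreated cells received 2 mM BrU for 10 min. In recovery, cells were held for 60 min in 1 µM flavopiridol (FP), an inhibitor of the kinase that releases paused polymerase, and BrU was then present for the first 5 or 10 min without the drug. There were 2 libraries in each of the 6 groups, 12 in all, and the cells were CCE28 mESCs of either genotype, grown on feeder fibroblasts and depleted of them before labelling. Whether each genotype stands for 1 clone is not given in the sources used here. The treatment text of the labels names CJ7 cells. The study describes its duplicate Bru-seq experiments as independent, and p-values measure the spread between these libraries.

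Methyltransferases place methyl groups on lysines of histone tails and demethylases remove them. Methylation of H3K4 marks active promoters and enhancers, H3K36 methylation is laid down over transcribed gene bodies, and H3K9, H3K27 and H4K20 methylation are known for their links to repressed or compacted chromatin. In mESCs the balance of these marks is known to hold developmental genes silent or poised. Several proteins with a SET domain that carry the Setd name act on other substrates, for example Setd3, which methylates actin.

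The stretches upstream of 6 members are shown because these genes mark the ends of the comparisons below. Kmt5c had the largest genotype difference in steady state, and Kdm5c the smallest p among members with lower values in libraries labelled EloA null after release. Kmt5a had the highest ratio of recovery to steady state at 10 min in WT and Setd1a was tied with Kmt2e next to it, Kdm7a had the lowest WT ratio at 10 min among expressed members and Kdm8 the lowest at 5 min. The sequences are from RefSeq (GRCm38.p6), run 5′ to 3′ on the strand of the gene, and end where the span of the gene begins. They cover chr7:4739877-4740091 (+) for Kmt5c, chrX:152232977-152233197 (+) for Kdm5c, chr5:124439680-124439929 (+) for Kmt5a, chr7:127777139-127777388 (+) for Setd1a, chr6:39206774-39207023 (-) for Kdm7a and chr7:125444370-125444619 (+) for Kdm8. Capitals mark the letters of 3 motifs on either strand. The GC box was searched as GGGCGG. The CCAAT box was searched by the letters in its name. The ETS site was searched as CCGGAAG.
Kmt5c: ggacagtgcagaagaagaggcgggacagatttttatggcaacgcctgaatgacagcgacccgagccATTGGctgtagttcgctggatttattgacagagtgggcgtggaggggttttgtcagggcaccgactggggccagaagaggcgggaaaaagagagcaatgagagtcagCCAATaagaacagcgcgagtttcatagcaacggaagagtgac
Kdm5c: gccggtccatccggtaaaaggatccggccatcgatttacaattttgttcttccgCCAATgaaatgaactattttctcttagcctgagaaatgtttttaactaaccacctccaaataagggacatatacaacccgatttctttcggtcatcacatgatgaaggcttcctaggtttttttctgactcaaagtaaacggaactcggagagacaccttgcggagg
Kmt5a: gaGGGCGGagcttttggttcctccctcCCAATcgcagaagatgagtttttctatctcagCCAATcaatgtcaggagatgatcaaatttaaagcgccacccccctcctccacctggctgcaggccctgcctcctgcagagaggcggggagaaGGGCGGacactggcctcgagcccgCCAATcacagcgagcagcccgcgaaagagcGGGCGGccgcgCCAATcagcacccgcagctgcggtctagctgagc
Setd1a: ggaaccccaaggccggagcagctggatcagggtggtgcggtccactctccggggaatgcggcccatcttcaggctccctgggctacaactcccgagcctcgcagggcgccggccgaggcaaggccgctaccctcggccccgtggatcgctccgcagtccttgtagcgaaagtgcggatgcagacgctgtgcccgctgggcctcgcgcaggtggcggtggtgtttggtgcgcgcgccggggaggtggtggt
Kdm7a: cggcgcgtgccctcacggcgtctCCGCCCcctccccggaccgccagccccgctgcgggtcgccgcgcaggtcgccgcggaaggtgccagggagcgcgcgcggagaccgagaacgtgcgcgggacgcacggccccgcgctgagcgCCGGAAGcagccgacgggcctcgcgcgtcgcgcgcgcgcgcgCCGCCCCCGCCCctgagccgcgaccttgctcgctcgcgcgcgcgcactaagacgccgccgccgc
Kdm8: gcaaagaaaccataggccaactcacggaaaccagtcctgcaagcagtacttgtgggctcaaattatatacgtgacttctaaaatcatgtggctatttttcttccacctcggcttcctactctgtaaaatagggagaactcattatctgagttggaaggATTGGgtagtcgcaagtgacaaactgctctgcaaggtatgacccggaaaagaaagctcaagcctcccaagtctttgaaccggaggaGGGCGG
Kmt5c and Kdm5c each hold CCAAT letters, with 2 matches and 1 match. Kmt5a holds 4 CCAAT and 3 GC box matches, and Setd1a, which had a similar ratio at 10 min, holds none of the 3 motifs. Kdm7a holds 3 GC box matches and 1 ETS match among 56 CpG dinucleotides in 250 bases, and Kdm8 holds 1 GC box and 1 CCAAT match and 7 CpG dinucleotides. Over all 32851 listed windows of 250 bases the GC box letters occur in 32.7%, the CCAAT letters in 33.9% and the ETS letters in 6.91%, and a GC box match can overlap an ETS match. Windows were listed for 27 of the 35 members, some with more than 1 window. In the first window listed for each, 15 members held a GC box, 12 a CCAAT box and 5 an ETS site. Such a window can lie inside the gene span, as for Setd5. The median number of CpG dinucleotides was 17 in these first windows and 6 in all windows. These matches describe letters only.

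Values are RPKM, reads per kilobase scaled to library size. The paper states that reads were counted over whole genes. The length behind the values, however, matched the summed introns of a gene rather than its whole span. Whether reads in exons are part of the values was therefore not settled here. Levels set side by side between genes of one table are per length of intron. The smallest library, of WT cells after 5 min, held 9857518 reads by the steps between low values, and the largest, labelled EloA null after 10 min, held 28547343. Eloa, the targeted gene, was at 1.18 and 1.16 RPKM in WT and 1.96 and 1.89 in libraries labelled EloA null in steady state, at 2.96 and 2.82 against 5.14 and 6.25 after 5 min, and at 4.65 and 6.51 against 8.74 and 8.93 after 10 min. Nascent RNA of Eloa was thus higher in every library labelled EloA null than in WT of the same table. Which part of the gene is deleted is not given in the sources used here, so this value does not check the labels, and every direction below is by label. The first steady-state library titled EloA null also carries a genotype tag of wild type, and the counts of steady-state calls, of non-overlapping members, of H3K4 writers and erasers, of H3K9 erasers and of recovery ratios under 1 are given with and without it. Of 12 embryonic stem cell markers 11 or 12 were above 0.5 RPKM in every library, with summed levels from 166 to 309 RPKM. Of 13 feeder fibroblast markers 1 to 3 were above this limit, with summed levels from 9.74 to 14.3 RPKM and 0 to 3 markers listed at 0.

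In WT steady state the nascent RNA of the members spanned more than 2 orders of magnitude, and the highest demethylases and methyltransferases reached similar levels. Among demethylases, Kdm3a, an H3K9me1/2 eraser, was at 12.1 and 12.2 RPKM and Kdm5b, an H3K4 eraser known for its role in mESC self-renewal, also at 12.1 and 12.2 RPKM, so that these 2 could not be ordered. Kdm3b followed at 8.18 and 8.52, Kdm1a (LSD1), the first lysine demethylase described, at 7.31 and 7.55, and Kdm6a (UTX), an H3K27 eraser, at 3.09 and 3.83 RPKM. The lowest expressed demethylases were Kdm7a at 0.662 and 0.706 RPKM, Kdm6b (JMJD3), the second H3K27 eraser, at 0.710 and 0.677, and Kdm8 at 0.935 and 0.694. The ranges of these 3 over the WT libraries overlap, so they could not be ordered. Kdm1a shares 4193 bases with Luzp1 and Kdm7a 11693 bases with a noncoding gene, both on the opposite strand, and since the use of strand in counting is not stated, reads could be shared there.

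The highest methyltransferase row was Setd6 at 11.8 RPKM in both WT libraries. Setd6 is 5.874 kb long and shares 2577 bases with Cnot1 on the opposite strand, and its values did not resolve into whole reads with the gene model used here, so that its level is uncertain. Setdb1, the H3K9 methyltransferase that silences retroviral elements in mESCs, was at 8.37 and 7.55 RPKM and Setd5 at 7.29 and 8.52, overlapping each other. Kmt5b, an H4K20 methyltransferase, was at 3.85 and 3.69 (a row that, like Setd6, did not resolve into whole reads) and Kmt2b (MLL2), an H3K4 methyltransferase known for bivalent promoters, at 3.73 and 3.43 RPKM. The lowest expressed were Setd4 at 0.965 and 0.793, Setd1b, an H3K4 methyltransferase, at 1.82 and 1.64, and Kmt2d at 1.95 and 1.85 RPKM, the last of which overlapped Setd3 and Kmt2c. The median over all members of the class was 2.25 and 2.07 RPKM for demethylases and 2.43 and 2.37 RPKM for methyltransferases in the 2 WT libraries.

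There were 3 rows at or under 0.5 RPKM in the mean of every group, which were tested in no table. Kdm4d, a paralog of the H3K9 erasers Kdm4a to Kdm4c, was at 0.0378 to 0.328 RPKM over the 12 libraries. Kdm5d, the Y-linked H3K4 eraser, was at 0.00620 to 0.0433 RPKM, which stands for 3 to 42 reads per library. Setd7, an H3K4 monomethyltransferase, was at 0.516 and 0.450 RPKM in WT steady state and passed 0.5 RPKM in that 1 library only. The X-linked paralog of Kdm5d, Kdm5c, was at 2.25 and 2.07 RPKM in WT steady state, and X-linked Kdm6a at 3.09 and 3.83 RPKM as above.

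**Figure D1:**
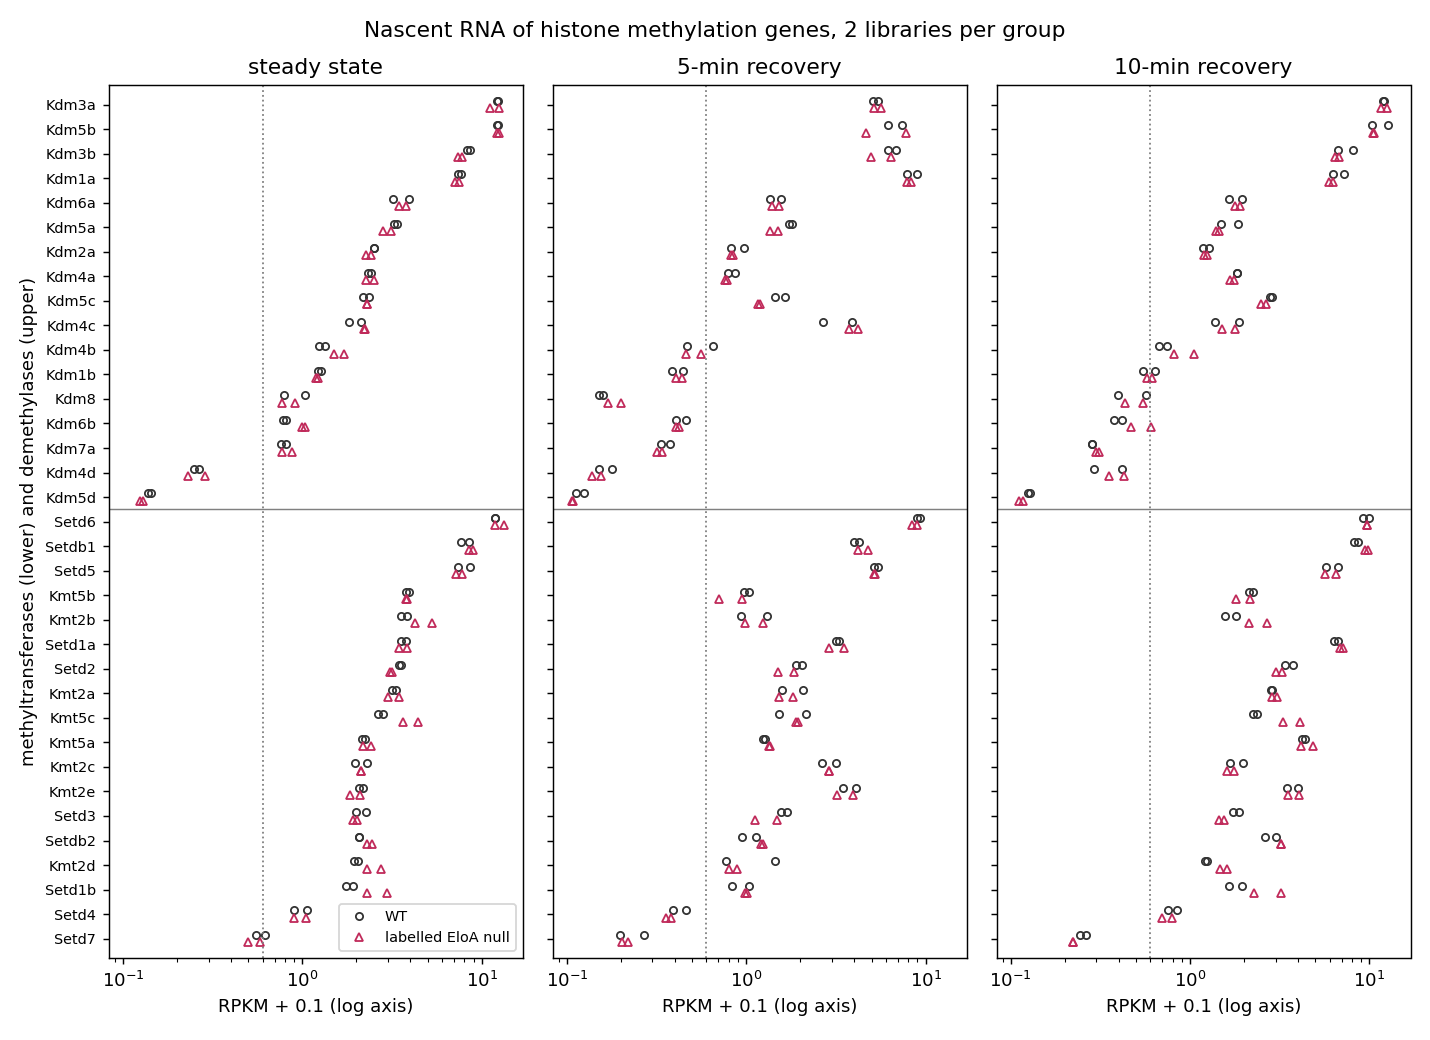
Nascent RNA of the 35 members in each of the 12 libraries, as RPKM plus 0.1 on a log axis, in steady state and after 5 and 10 min of recovery; each symbol is 1 library and the dotted line marks the limit of 0.5 RPKM. Kdm3a, Kdm5b and Setd6 sit near 12 RPKM in steady state, and Kdm4d and Kdm5d lie left of the limit in every panel. For most members WT and EloA null symbols lie close together on this axis, whether or not their values overlap.

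The genotype comparison asks whether loss of Elongin A changes the nascent RNA of these genes. Of the 35 members 32 were expressed in steady state (mean above 0.5 RPKM in WT or EloA null), 15 demethylases and 17 methyltransferases, and each of them passed the limit in both genotypes. limma on log2(RPKM + 0.1) with Benjamini-Hochberg adjustment called 0 of the 32, and also 0% of all 11347 genes tested. In bulk libraries fewer cells of a type and less RNA per cell cannot be told apart. At an unadjusted p under 0.05 there were 5 members, all higher in libraries labelled EloA null, beside 18.4% of all genes in either direction, where 14.1% of all genes tested were higher at this limit and 4.22% lower, and with single libraries left out their number ran from 0 (without the second WT library) to 5, with 1 without the first WT or the second library labelled EloA null. In ratio of mean RPKM 0 members passed 1.5-fold in either direction, against 7.21% of all genes higher and 2.1% lower. Without the EloA null library whose genotype tag reads wild type the adjusted p called 0 members, 5 passed the unadjusted p, and Kmt5c and Setd1b passed 1.5-fold. Without the first WT library these 2 also passed 1.5-fold.

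Among methyltransferases in steady state, Kmt5c, which trimethylates H4K20 at heterochromatin, was at 2.71 and 2.56 RPKM in WT and 3.53 and 4.3 in libraries labelled EloA null. Its log2 difference was 0.55 ± 0.12 (SE, n = 2 per genotype, limma adjusted p = 0.157). Setd1b was at 1.82 and 1.64 in WT and 2.19 and 2.85 in EloA null, a log2 difference of 0.51 ± 0.15 (limma adjusted p = 0.206). Kmt2d (MLL4), the main H3K4 monomethyltransferase of enhancers, was at 1.95 and 1.85 against 2.19 and 2.63, with a log2 difference of 0.33 ± 0.12 (limma adjusted p = 0.254). In all 3 both libraries labelled EloA null lay above both WT libraries, and the second library labelled EloA null was the higher. Kmt2b, which just missed the unadjusted limit, was at 3.73 and 3.43 against 4.12 and 5.16 RPKM.

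Among demethylases, Kdm6b was at 0.710 and 0.677 RPKM in WT and 0.892 and 0.938 in EloA null, a log2 difference of 0.36 ± 0.10 (limma adjusted p = 0.195). Kdm4b, an H3K9 and H3K36 eraser, was at 1.24 and 1.14 against 1.41 and 1.61, a log2 difference of 0.32 ± 0.11 (limma adjusted p = 0.234). Kdm3b went the other way, with 8.18 and 8.52 in WT and 7.29 and 7.64 in EloA null and a log2 difference of -0.16 ± 0.09 (limma adjusted p = 0.405). Values did not overlap between genotypes for 9 members higher in libraries labelled EloA null, beside 32% of all genes tested, and for 4 lower members (Kdm2a, Kdm3b, Kdm5a and Setd2), beside 21.4%. Without the library tagged wild type, where 1 library was set against 2, there were 14 higher, beside 43.8%, and 11 lower, beside 36.4%. Setd2, which trimethylates H3K36 on transcribed genes, was at 3.37 and 3.45 RPKM in WT and 2.98 and 3.05 in EloA null.

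Both classes spread around 0 in steady state. The median log2 difference was 0.0080 for the 15 demethylases and 0.00088 for the 17 methyltransferases, beside 0.033 for all genes tested, and the range was -0.16 to 0.36 in the former and -0.17 to 0.55 in the latter. The demethylase median minus the methyltransferase median was 0.0072. With libraries left out in turn this difference ran from -0.128, without the first library labelled EloA null, to 0.032. A class difference was also taken in each library, with each member's log2 value centred on its mean over the libraries of the table. It was 0.061 and 0.058 in WT and 0.026 and -0.114 in EloA null. Its SD between libraries of a genotype was 0.070, which is not the spread of the 0.0072.

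After 10 min of recovery, 28 members were tested (11 demethylases and 17 methyltransferases) and 0 passed the adjusted p, beside 0% of all 10241 genes. At an unadjusted p under 0.05 there were 4, all methyltransferases higher in libraries labelled EloA null (Kmt2b, Kmt2d, Kmt5c and Setd1b), beside 20.5% in either direction, where 15.2% of all genes were higher at this limit and 5.25% lower. Kmt5c alone stayed under it without either WT library or without the first library labelled EloA null. Past 1.5-fold there were 2 members higher, beside 9.41% of all genes, and 0 lower, beside 3.01%. Kmt5c was at 2.26 and 2.13 RPKM in WT and 3.99 and 3.18 in EloA null, 1.63-fold in means and 0.67 ± 0.14 on the log2 scale (n = 2 per genotype, limma adjusted p = 0.138). Setd1b was at 1.85 and 1.54 against 3.11 and 2.18, 1.56-fold in means and 0.60 ± 0.20 on the log2 scale (limma adjusted p = 0.223). The first library labelled EloA null was the higher in both, and with it left out 0 members passed 1.5-fold, whereas without the second library labelled EloA null 5 did (Kdm4b, Kdm6b, Kmt2b, Kmt5c and Setd1b), and without the second WT library Kmt5c alone did.

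Kmt2b was at 1.69 and 1.47 RPKM in WT and 2.59 and 2.03 in EloA null after 10 min, a log2 difference of 0.51 ± 0.16 (limma adjusted p = 0.202). Of the demethylases, Kdm4b was at 0.639 and 0.571 against 0.948 and 0.718 (0.39 ± 0.18 on the log2 scale, limma adjusted p = 0.307). Kdm5a, an H3K4 eraser, was at 1.39 and 1.75 against 1.30 and 1.36, and Kdm5c at 2.69 and 2.75 against 2.55 and 2.40 RPKM. Both had lower values in libraries labelled EloA null, by 0.22 ± 0.15 for Kdm5a and 0.13 ± 0.10 for Kdm5c on the log2 scale, with limma adjusted p of 0.437 and 0.455. Genotypes did not overlap for 9 members higher, beside 33.5% of all genes, and for 6 lower, beside 21.8%. The class medians were -0.094 for demethylases and 0.047 for methyltransferases, beside 0.059 for all genes tested. Over all rows of each class, with those under 0.5 RPKM, they were 0.0093 and 0.030, and without the second WT library the demethylase median of tested members was 0.00060, so that its sign was not stable. The difference of -0.141 between the classes was -0.021 over all rows and -0.058 once a trend with GC content was removed from each library. Taken in each library on centred members, the class difference was 0.013 and 0.137 in WT and -0.102 and -0.093 in EloA null. The SD of these values between libraries of a genotype was 0.062.

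After 5 min of recovery, 26 members were tested, 10 demethylases and 16 methyltransferases, since 5 demethylases and 1 methyltransferase more than in steady state lay under the limit. Of these, 0 passed the adjusted p, beside 0% of all 8985 genes, and 0 passed 1.5-fold, beside 5.4% higher and 6.72% lower. A single member had an unadjusted p under 0.05, Kdm5c, beside 9.42% of all genes, where 4.87% of all genes were lower at this limit and 4.54% higher. Kdm5c was at 1.55 and 1.35 RPKM in WT and 1.06 and 1.10 in EloA null, so that both libraries labelled EloA null lay below both WT libraries. Its log2 difference was -0.39 ± 0.15 (n = 2 per genotype, limma adjusted p = 0.527). When all 12 libraries shared 1 estimate of the spread its limma adjusted p was 0.0446, and 532 of all 8985 genes were called. Without any 1 of the 4 libraries its unadjusted p was above 0.05. Kdm5a, its H3K4 eraser paralog, was at 1.63 and 1.71 in WT against 1.25 and 1.41, and Kdm4c, an H3K9 eraser, was at 2.57 and 3.76 against 3.64 and 4.10 with overlapping values.

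Among methyltransferases after 5 min, Setd3 was at 1.59 and 1.46 in WT and 1.38 and 1.02 in EloA null (log2 difference -0.33 ± 0.19, limma adjusted p = 0.664), and Setd2 at 1.81 and 1.93 against 1.41 and 1.74. Setdb2, an H3K9 methyltransferase, was at 1.03 and 0.852 against 1.12 and 1.14 RPKM (0.25 ± 0.16, limma adjusted p = 0.730). Setdb2 lies on chromosome 14, where the median log2 difference of all genes tested was 0.50 in steady state, 0.46 after 5 min and 0.51 after 10 min, and its whole span is also annotated to a second gene on the same strand. Kmt5c, Setd1b and Kmt2b, which were higher in EloA null in the other tables, overlapped between genotypes here (Kmt5c 2.06 and 1.42 against 1.80 and 1.84 RPKM). Genotypes did not overlap for 2 members higher, beside 15.4% of all genes, and for 7 lower, beside 25%. The class medians were -0.110 and -0.034, beside -0.060 for all genes.

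**Figure D2:**
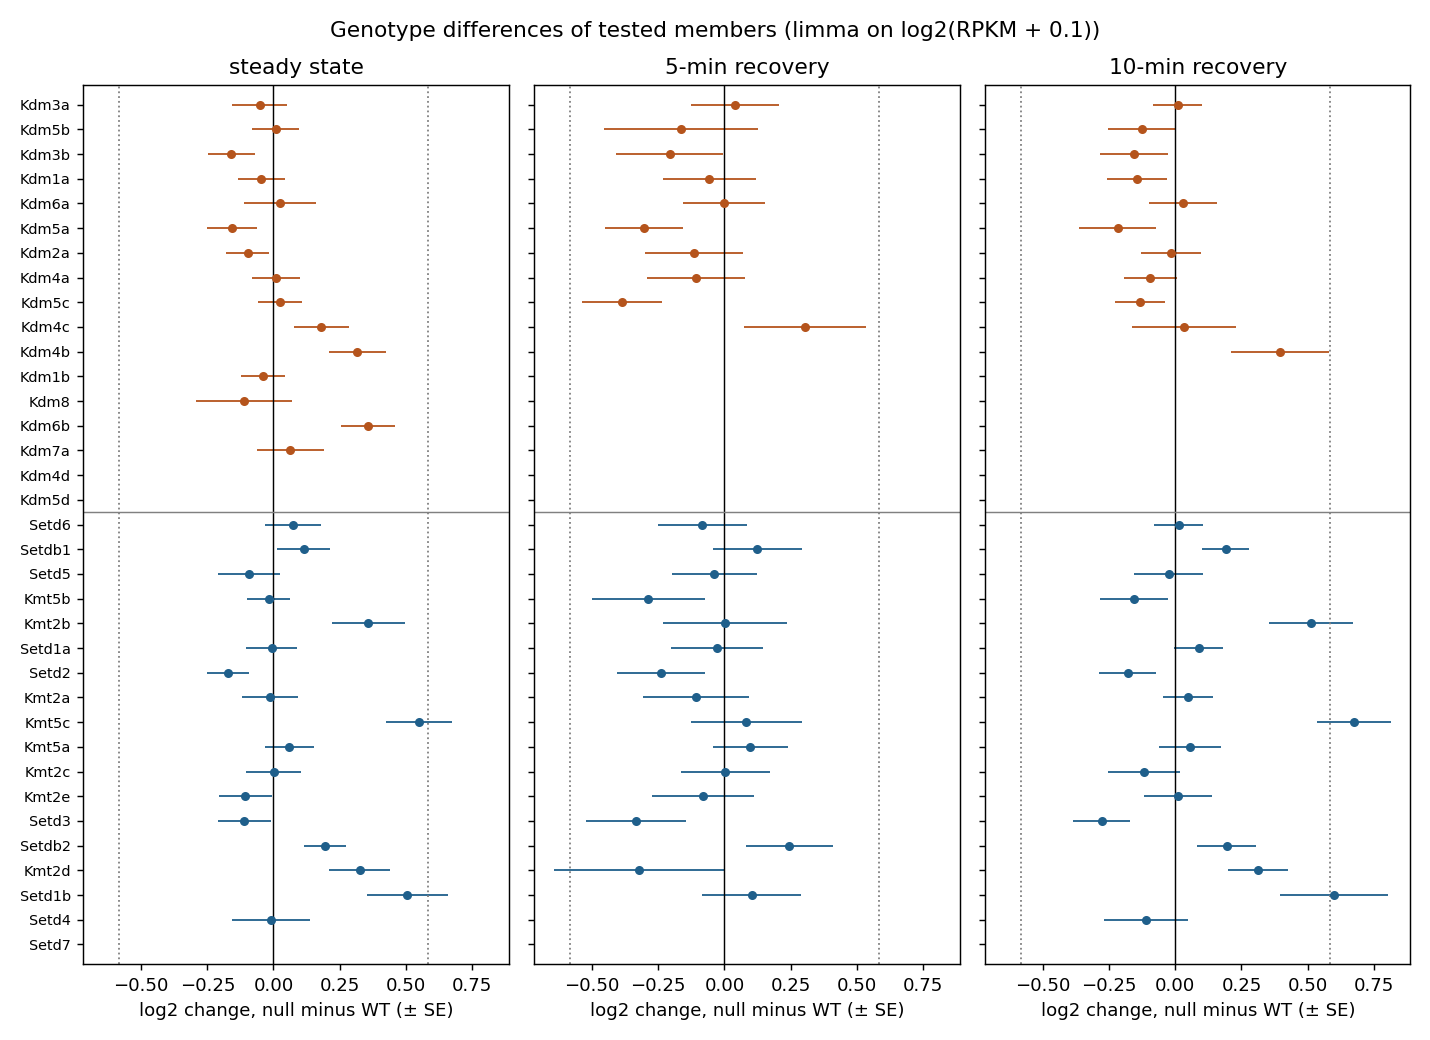
Log2 difference of EloA null minus WT for each tested member in the 3 tables, with its standard error (n = 2 libraries per genotype); dotted lines mark 1.5-fold. Kmt5c and Setd1b are the points farthest to the right in steady state and after 10 min, and Kdm5c the point farthest to the left after 5 min.

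Whether the genotype difference itself changed with release from FP was tested in a fit of all 12 libraries. Against steady state, 0 members passed the adjusted p after 5 min, beside 0.1% of 11975 genes, and 0 after 10 min, beside 0.00835%. A single member of 32, Kdm5c, had an unadjusted p under 0.05 after 5 min, beside 6.51% of all genes (limma adjusted p = 0.668), with a log2 genotype difference 0.41 ± 0.13 lower than in steady state. For Kmt5c the same difference was -0.47 ± 0.25 after 5 min and 0.13 ± 0.25 after 10 min.

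Of all genes tested, 56.2% lay above 0 in steady state, 40.6% after 5 min and 58.5% after 10 min, which is the background for the counts by substrate here. The H3K4 writers (Kmt2a, Kmt2b, Kmt2c, Kmt2d, Setd1a and Setd1b) had a median log2 difference of 0.163 in steady state, with values from -0.014 to 0.51 and 4 of 6 above 0 (3 of 6 with centred libraries, and 6 of 6 without the library tagged wild type). The median was 0.200 after 10 min with 5 of 6 above 0 (3 of 6 with centred libraries) and -0.013 after 5 min with 3 of 6 (4 of 6 with centred libraries). Removing the trend with GC content brought the steady-state median to 0.070 and the 10-min median to -0.0067. Setd7, an H3K4 monomethyltransferase, was not among these writers and was under the RPKM limit in every table. Its ratio of means, EloA null over WT, was 0.91 in steady state, 0.82 after 5 min and 0.80 after 10 min. The H3K4 erasers had medians of -0.039 (5 tested), -0.234 (4 tested) and -0.139 (4 tested) in steady state, after 5 min and after 10 min. In steady state 2 of the 5 were above 0, and 1 of 5 without the library tagged wild type. Kdm1b and Kdm5d were under the RPKM limit after release. Their ratios of means, EloA null over WT, were 1.03 and 0.39 after 5 min and 1.01 and 0.54 after 10 min. After 10 min all 4 erasers tested (Kdm1a, Kdm5a, Kdm5b and Kdm5c) were below 0, beside 41.5% of all genes. Kdm5b overlapped between genotypes, at 10.3 and 12.6 RPKM in WT and 10.5 and 10.4 in EloA null. Against the first WT library alone it was thus not lower. The 4 signs held with centred libraries and with the length or GC trend removed. After 5 min 0 of the 4 were above 0 as deposited and 1 of the 4 under each of these 3 settings. Among H3K9 writers with a Setd name, Setdb1 and Setdb2 were above 0 in all 3 tables and under the same settings, and Setdb2 lies on chromosome 14 (see above). Of H3K9 writers with other names, Suv39h1, Suv39h2 and Ehmt1 were below 0 in all 3 tables as deposited. Ehmt2 was above 0 in steady state and after 10 min and was not tested after 5 min. The H3K9 erasers were mixed, with 3 of 5 (the same number without the library tagged wild type), 2 of 4 and 3 of 5 above 0. Setd2 was below 0 in all 3 tables under these settings, at -0.17, -0.24 and -0.18 as deposited. None of these members passed the adjusted p.

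Values are given beside the GC content of the gene span, with which the differences of all genes moved in steady state and after 10 min (Spearman's rho 0.52 and 0.45 across genes, which are not independent replicates, and 0.05 after 5 min). Kdm6b (56.5% GC), Kmt5c (55.8%), Kmt2b (54.9%), Kmt2d (54.8%) and Setd1b (54.1%) had a median log2 difference of 0.358 in steady state, beside 0.306 for all 1242 genes tested with at least 54% GC and -0.118 for the 2622 genes under 42%. After 10 min the 4 tested among them had a median of 0.556, beside 0.394 for 1072 genes, and after 5 min 0.043, beside -0.038 for 794 genes. Over the tested members Spearman's rho between GC content and log2 difference was 0.43 (n = 32), -0.11 (n = 26) and 0.44 (n = 28) in the 3 tables, a description of points that share libraries. With the GC trend removed from each library, Kmt5c fell from 0.55 to 0.26 and Setd1b from 0.51 to 0.25 in steady state, and Kmt2d (0.058), Kdm6b (0.078) and Kdm4b (0.078) came close to 0. After 10 min Kmt5c was then at 0.31, Setd1b at 0.28, Kmt2b at 0.18 and Kdm4b at 0.12.

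**Figure D3:**
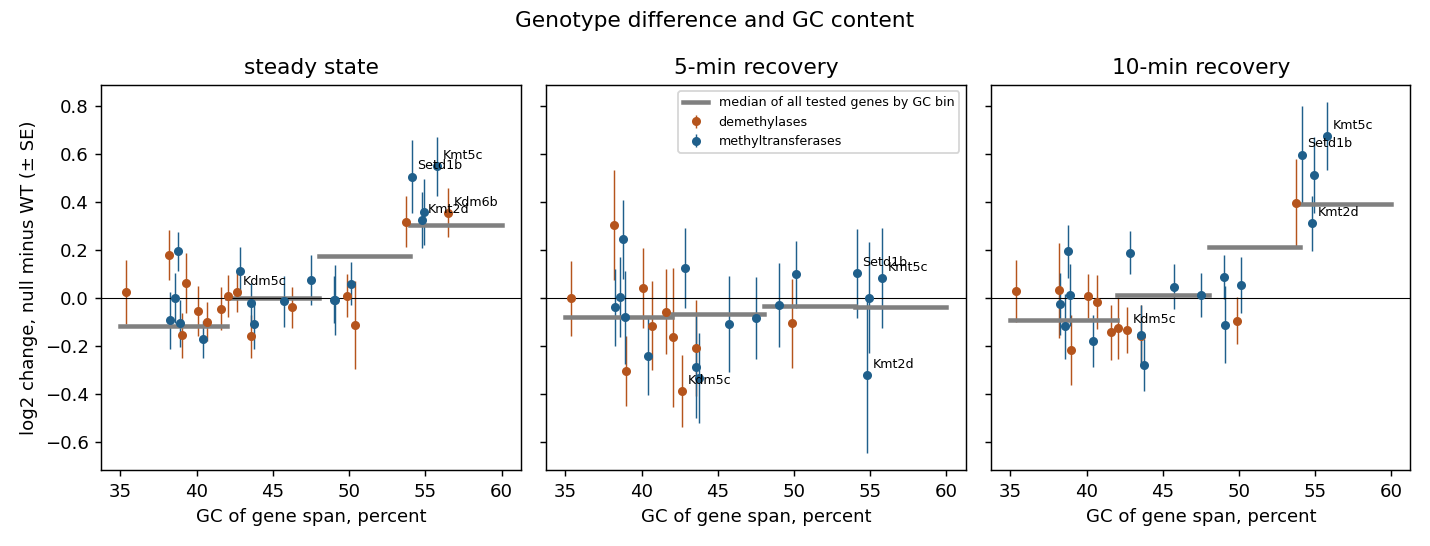
Log2 difference of EloA null minus WT (± SE) against the GC content of the gene span for tested members, with grey bars for the median of all genes tested in 4 bins of GC content. Members at 54% GC or more lie above 0 in steady state and after 10 min, and on both sides of 0 after 5 min, where Kmt2d is at -0.32.

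The tables after release from FP show nascent RNA labelled in the first minutes without the drug. At the elongation rate the paper estimates, new transcription would not cross a long gene in this time. Values over the whole of a long gene are thus not a measure of its restart. Recovery is given as RPKM after release divided by the steady-state mean of that genotype. It is a description only, since the 3 tables were normalized separately and the pulse was shorter in the 5-min table. The paper added Drosophila spike-in RNAs to each sample, but whether RPKM was scaled by them is not given in the sources used here. A ratio of 1 thus does not show that the amount of nascent RNA was back at its steady-state level. In WT the median ratio after 5 min was 0.422 for the 15 expressed demethylases and 0.548 for the 17 expressed methyltransferases, beside 0.631 for all 10758 expressed genes. After 10 min it was 0.508 for demethylases and 0.849 for methyltransferases, beside 1.03 for all expressed genes. Libraries labelled EloA null gave 0.386 and 0.511 after 5 min and 0.551 and 0.914 after 10 min, beside 0.560 and 1.02. The ratio was under 1 after 10 min in 14 of 15 demethylases and 11 of 17 methyltransferases in WT, and in 13 of 15 and 10 of 17 in EloA null (13 of 15 and 12 of 17 without the steady-state library tagged wild type). The share of all expressed genes under 1 was not computed, so these counts do not set either class apart from other genes. The WT median of all expressed genes after 10 min was 1.23 under 10 kb and 1.53 at 10 to 30 kb. It was 0.858 at 30 to 60 kb, 0.582 at 60 to 100 kb and 0.655 over 100 kb. A ratio under 1 was thus usual for genes over 30 kb. After 10 min 9 of 15 demethylases and 7 of 17 methyltransferases in WT were under the median of their length class. In EloA null these counts were 10 of 15 and 7 of 17.

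Expressed demethylase genes were the longer, with a median span of 62.4 kb (19.0 to 163.4) against 38.9 kb (5.87 to 227.1) for methyltransferases. Against all expressed genes of the same length class, the median WT demethylase stood at 0.835 of the class median after 5 min and 0.872 after 10 min, and the median methyltransferase at 0.983 and 1.22. In EloA null the values were 0.728 and 0.872 for demethylases and 1.07 and 1.28 for methyltransferases. Restricted to members expressed in both tables, the methyltransferase median was 1.03 times that of demethylases in WT after 5 min and 1.04 times after 10 min, against 1.30 and 1.67 times with all expressed members, a choice of members that itself uses the recovery level.

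The members with the highest WT ratio after 10 min were Kmt5a, the H4K20 monomethyltransferase, with 1.96 and 2.05 in the 2 recovery libraries, and, below it, the H3K4 methyltransferase Setd1a with 1.86 and 1.76, which could not be ordered against Kmt2e. Kmt5a and Setd1a are short, at 22.4 and 22.7 kb, and genes of 10 to 30 kb had a median ratio of 1.53. Kmt2e, a SET protein for which little histone activity is known, was at 1.68 and 1.94. It spans 71.2 kb, a class with a median of 0.582, and was at 1.66 and 1.98 after 5 min. In EloA null libraries the 3 genes were at 2.15 and 1.84, 1.97 and 1.89, and 1.83 and 2.10 after 10 min, overlapping the WT values for Kmt5a and Kmt2e and lying above them for Setd1a. Kmt2e shares 1318 bases with a noncoding gene and 880 bases with Srpk2 on the opposite strand.

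The lowest WT ratio after 10 min belonged to Kdm7a, an H3K9 and H3K27 eraser of 70.2 kb, with 0.269 in both libraries (0.295 and 0.278 in EloA null). Kdm6b (0.457 and 0.402), Kdm1b and Kmt2b were next in means. Their values overlapped one another and those of Kdm2a, Kdm5a, Kdm6a and Kdm8, so they could not be ordered. Kdm6b, Kmt2b and Kdm8 were far under the median of 1.53 for their length class. Kdm8, which at 19.0 kb is the shortest expressed demethylase, was at 0.0737 and 0.0637 after 5 min and at 0.579 and 0.362 after 10 min in WT. In EloA null it was at 0.134 and 0.0922 after 5 min. The 5-min values of Kdm8 stand for 9 and 10 reads in WT and 18 in each library labelled EloA null. The third of the shortest expressed demethylases, Kdm1b, was at 0.302 and 0.250 and then 0.472 and 0.388.

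Long members differed from one another. Kdm4c (163.4 kb) had a ratio of 1.38 and 2.02 after 5 min and 0.683 and 0.951 after 10 min in WT, and Kmt2c (227.1 kb), a methyltransferase of enhancer H3K4, had 1.26 and 1.51 and then 0.769 and 0.927. Genes over 100 kb had a median ratio of 1.14 after 5 min and 0.655 after 10 min. Kdm6a (119.1 kb) was at 0.363 and 0.422 and then 0.448 and 0.535. Kdm2a (82.6 kb), an H3K36 eraser, was at 0.365 and 0.302 and then 0.452 and 0.488. Setd2 (86.1 kb) had 0.530 and 0.567 and then 0.966 and 1.06, and Kmt2a (78 kb) 0.624 and 0.469 and then 0.883 and 0.871. The short methyltransferases Setd6 and Kmt5c were at 0.775 and 0.838 and at 0.858 and 0.811 after 10 min, under the median of 1.23 for genes under 10 kb, and Kmt2b (20.2 kb) at 0.473 and 0.411. Over the 32 expressed members Spearman's rho between ratio and span was 0.24 after 5 min and -0.02 after 10 min in WT, a description of genes that share libraries.

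**Figure D4:**
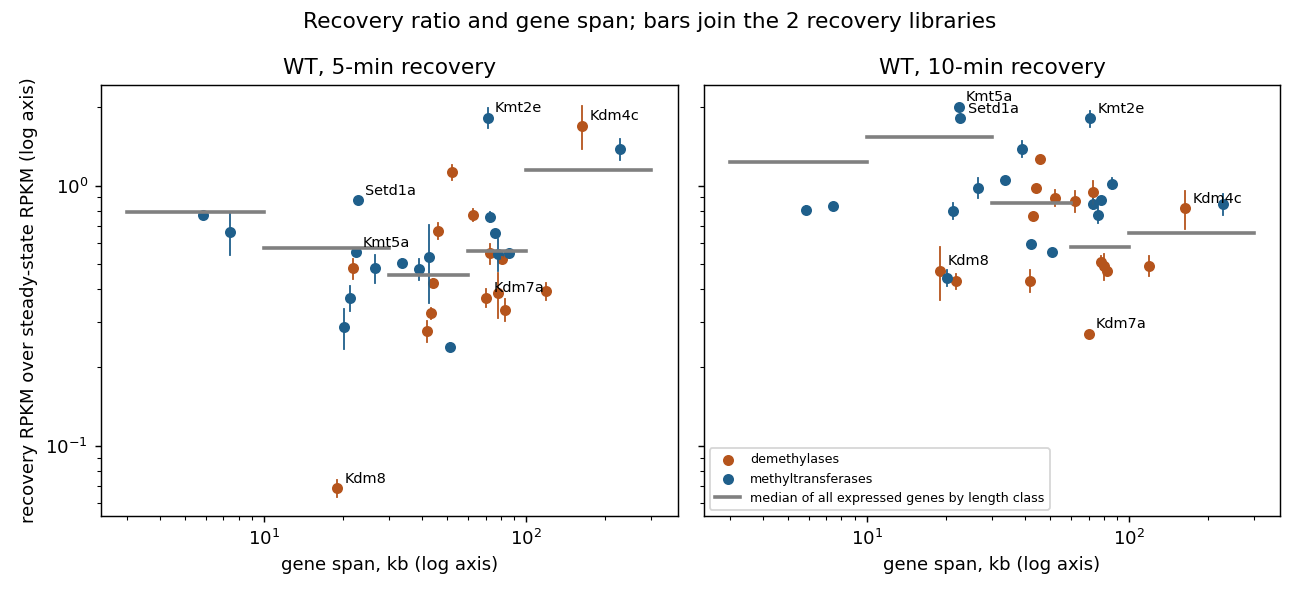
WT recovery (RPKM after release over the steady-state mean) for the 32 expressed members against gene span, both on log axes; points are ratios of means, bars join the 2 recovery libraries and grey lines are medians of all expressed genes by length class. Kdm8 lies lowest after 5 min, Kdm7a lowest after 10 min, and Kmt5a, Setd1a and Kmt2e highest after 10 min.

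Other genes of the same pathways were read from lists of methyltransferases, demethylases and complex partners without the Kdm, Kmt or Setd names. In steady state, 1 of 18 other methyltransferases tested was past 1.5-fold higher in libraries labelled EloA null, Ehmt2 (G9a, an H3K9 writer), with mean RPKM of 0.818 in WT and 1.32 in EloA null, and 0 of 7 other demethylases were, beside 7.21% of all genes. Of 18 complex partners 1 was past it, Rcor2, a corepressor that binds Kdm1a, with 3.38 and 6.37. After 10 min 1 of 15 other methyltransferases (Ehmt2), 1 of 6 other demethylases (Riox1) and 2 of 18 partners (Pagr1a and Rcor2) were past 1.5-fold higher, beside 9.41% of all genes. The genes past it in these tables were all at high GC content, with 54.8% for Ehmt2, 57.5% for Rcor2, 56.4% for Pagr1a and 61.4% for Riox1, and the part of GC content in their differences was not tested. After 5 min 1 of 17 partners (Rcor1, 2.08 against 1.39 RPKM) was past 1.5-fold lower, beside 6.72% of all genes. By the adjusted p 0 genes of these lists were called in any table.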

How the data were processed

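Bru-seq libraries of WT and EloA null mESCs were grouped by title, with 2 libraries per genotype in each of 3 conditions, and another 16 samples were not analysed here. The authors aligned reads to mm10 and dm3 with Bowtie2 2.3.4.3, kept unique reads and separated strands with SAMtools, counted reads over RefSeq genes with featureCounts 1.6.1, and deposited RPKM values made with edgeR, in 1 table per condition without pooling. The use of strand in counting and the RefSeq release are not given in the sources used here. RPKM of 96.5 to 96.8% of expressed genes with introns stood for whole reads (within 0.05) only with the summed length of introns, and library sizes were recovered from this, so that depth is known but intervals for counting error were not computed.

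Members were found by symbol, and 1 row beginning with Kdm is not reported here. Members, lists and tests were chosen with earlier results of these data known. Spans and GC content came from RefSeq on GRCm38.p6, where all 35 members were matched. Each table was tested on its own with limma 3.58.1 (R 4.3.3) on log2(RPKM + 0.1) with an intensity trend, for genes with mean RPKM above 0.5 in either genotype, so that a log2 difference understates changes of low genes. Adjusted p-values are Benjamini-Hochberg over all genes tested and an adjusted p under 0.05 was called. The change of the genotype difference with release was fitted over all 12 libraries. The code was tested on simulated tables. Genes described with their values were the 5 highest and 3 lowest members of each class in WT, members past 1.5-fold, the 3 smallest p per class and table, the 3 shortest and 3 longest members per class and the 2 highest and 2 lowest recovery ratios, with Kdm5c, Kdm5d, Kdm6a and Eloa; further members were chosen after their values were seen. Alternatives were another pseudocount (1 or 0.01), another RPKM limit (none or 1), 2-fold, centred libraries, removed length or GC trends, a replicate block, a robust or shared variance, and leaving out each library.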

Additional observations from a re-analysis of the deposited data

How the results depend on the processing

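Of 232 alternative fits of the named members' log2 differences, 231 kept their direction and their side of the adjusted p. This count says little, since these members were picked by smallest p or fold and none passed the adjusted p as reported. Sizes moved, from 0.058 to 0.45 for Kmt2d in steady state and from 0.038 to 0.57 for Kdm4c after 5 min. The fit that changed side was Kdm5c after 5 min, which passed (limma adjusted p = 0.0446) when all 12 libraries shared 1 spread. The members called there rose from 0 to 1. The cause was not tested. Members past 1.5-fold lower rose from 0 to 1 without an RPKM limit after 5 min and after 10 min (Kdm5d, at 3 to 25 reads per library). After 10 min the 2 members past 1.5-fold higher became 1 with centred libraries (Kmt5c) or with the length trend removed (Setd1b), and 0 with the GC trend removed or at 2-fold. With single libraries left out, the number higher ran from 0 to 2 in steady state, 0 to 1 after 5 min and 0 to 5 after 10 min, and the number lower from 0 to 1 after 5 min. The median difference between classes after 10 min (-0.141) was -0.021 without an RPKM limit and -0.058 with the GC trend removed. With libraries left out it ran from -0.128 to 0.032 in steady state, from -0.098 to -0.034 after 5 min and from -0.185 to -0.070 after 10 min.

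The ratio of the methyltransferase to the demethylase median recovery ratio (1.30 in WT and 1.32 in EloA null after 5 min, 1.67 and 1.66 after 10 min) became 1.03, 1.08, 1.04 and 1.25 with members expressed in both tables, and 1.18, 1.47, 1.40 and 1.46 within length classes. With libraries left out it ran from 1.25 to 1.35 and from 1.28 to 1.43 after 5 min, and from 1.53 to 1.64 and from 1.42 to 1.69 after 10 min.

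Libraries share only a replicate number, and the correlation of deviations between same-numbered libraries was 0.101, 0.119 and 0.103 in the 3 tables, over 2 pairs each. With a replicate block the members past the adjusted p stayed at 0 in each table and at 0 for both changes of the genotype difference, while the genes called over the whole table went from 0 to 128 of 8985 after 5 min and stayed at 0 in the other 2 tables. The replicate block left the class differences at 0.0072, -0.076 and -0.141. Over all genes the shared spread called 132, 532 and 264, and the robust variance 81, 29 and 26. Depth limits the lowest rows: Kdm5d and Kdm8 rest on 3 to 18 reads per library after 5 min.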
